A study of Schizosaccharomyces pombe with 6 samples.

Results

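Small nucleolar RNAs (snoRNAs) and small nuclear RNAs (snRNAs) were followed in nitrogen-starved fission yeast, *Schizosaccharomyces pombe*. They were taken as every row of the deposited tables whose identifier begins with SPSNORNA (53 rows) or SPSNRNA (7 rows), which gave 60 of 7001 rows. The RNAseq libraries came from h- cells at 25 °C, starved of nitrogen for 4 hours in minimal medium, with 2 libraries in each of 3 groups. The groups were wild type (WT) of strain 972, cells labelled igo1::kanMX6 and here called *igo1*Δ-labelled, whose Endosulfine gene should be replaced by the kanMX6 drug marker, and cells labelled nmt41-GST-pab1-KanMx6 igo1::natMx6, here called *pab1*-repressed. By their label the last also carry an *igo1* deletion, made with the natMx6 marker. Their *pab1* gene, which encodes the B55 subunit of the phosphatase PP2A, is by the same label fused to GST and driven by the thiamine-repressible nmt41 promoter. The labels give thiamine during growth and washing for all 3 groups. The labels call the libraries of a pair biological replicates without saying that they came from separate cultures, so p-values measure the spread between the deposited libraries, which may be technical.

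Most snoRNAs act as guides in the nucleolus. Box C/D snoRNAs carry a C box (UGAUGA) and a D box (CUGA), bind fibrillarin and direct 2′-O-methylation of ribosomal RNA, whereas box H/ACA snoRNAs end in an ACA box, bind the Cbf5 pseudouridine synthase and direct pseudouridylation. A few, among them U3, U14 and U17 (snR30), are needed for the cleavages that release 18S ribosomal RNA from its precursor. The snRNAs U1, U2, U4, U5 and U6 are the RNA core of the spliceosome. None of these RNAs has a poly(A) tail in its mature form, and the libraries were made from total RNA depleted of ribosomal RNA. By the reference annotation (ASM294v3, RefSeq) the rows comprise 5 spliceosomal snRNAs, 2 copies of U3 (*snu3* and *snu32*, filed among the SPSNRNA rows), 20 H/ACA snoRNAs with snR30 counted among them, and 33 other snoRNAs.

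The letters of these RNAs followed their families. In the 33 other snoRNAs the letters UGAUGA stood within the first 20 bases of 18 and CUGA within the last 15 bases of 29, read on the RNA strand, and 17 had both. Of 12585 other annotated genes read the same way, 0.318% had the first, 3.19% the second and 0.0397% both. The letters ACA stood exactly 3 bases from the end of 10 of the 20 H/ACA snoRNAs, of none of the 33 others, and of 1.81% of the other annotated genes. Annotated ends may differ from the mature RNA, so a missing match says only that the letters are not in that window.

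Shown here are snoRNAs on which the comparisons turn, from the ASM294v3 annotation, 5′ to 3′ and in RNA letters. In U14 and snR51b the capitals mark the C box and D box letters, and in snR70 only the D box letters, since UGAUGA was not found in its first 20 bases. In snR46 they mark the ACA box.
snoU14: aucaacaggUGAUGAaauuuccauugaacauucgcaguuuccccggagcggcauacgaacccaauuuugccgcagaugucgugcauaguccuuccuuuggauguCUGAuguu
snR70: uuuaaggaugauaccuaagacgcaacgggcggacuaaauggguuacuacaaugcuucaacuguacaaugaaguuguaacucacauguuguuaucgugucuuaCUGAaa
snR51b: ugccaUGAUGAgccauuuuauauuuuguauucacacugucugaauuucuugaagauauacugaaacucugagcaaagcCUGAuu
snR46: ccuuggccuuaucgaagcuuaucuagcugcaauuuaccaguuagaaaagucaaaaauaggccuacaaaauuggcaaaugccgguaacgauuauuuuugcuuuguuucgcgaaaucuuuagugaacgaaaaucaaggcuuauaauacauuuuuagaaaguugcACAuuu

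The U3 copies are shown because their reads are among the most abundant of the set and because the copies are related. A local alignment joined bases 3 to 134 of *snu3* to bases 125 to 255 of *snu32*, with 115 identical positions in 132 columns (87.1%), so the annotated *snu32* ends where the alignment does. The capitals mark their longest identical stretch, 31 bases. In *snu32* 19.9% of the 50-base stretches occur more than once in the genome, outside *snu3*, so reads on them cannot be assigned with certainty. *snu3* and the other rows with reads had no such stretch.
snu3: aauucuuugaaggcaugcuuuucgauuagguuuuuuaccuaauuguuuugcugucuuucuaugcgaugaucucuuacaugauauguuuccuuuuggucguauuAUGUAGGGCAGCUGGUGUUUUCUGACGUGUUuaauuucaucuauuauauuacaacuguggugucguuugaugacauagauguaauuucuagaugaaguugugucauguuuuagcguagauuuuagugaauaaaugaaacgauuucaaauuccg
snu32: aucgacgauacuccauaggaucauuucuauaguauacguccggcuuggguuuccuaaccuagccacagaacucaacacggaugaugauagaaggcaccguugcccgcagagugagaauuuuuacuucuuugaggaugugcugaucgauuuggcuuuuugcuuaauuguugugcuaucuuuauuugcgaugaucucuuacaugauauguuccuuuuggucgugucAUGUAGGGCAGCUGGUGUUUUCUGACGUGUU

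The libraries held between 14791399 and 18809513 reads on genes, recovered from the deposited normalized counts. Levels are given below as reads scaled by TMM, a normalization to the bulk of genes, over all 6 libraries. The checks of the labels were mixed. The gene *igo1* had 1876 and 2098 WT reads, 1693 and 1478 in the *igo1*Δ-labelled libraries, and 2307 and 5035 in the *pab1*-repressed pair, so the deletion is not seen in the reads and every direction given here rests on the labels. *pab1* had 2853 and 3027 WT reads, 2182 and 1819 in the *igo1*Δ-labelled libraries, and 2296 and 1078 in the *pab1*-repressed pair. It was called lower in the *igo1*Δ-labelled libraries than in WT (log2 -0.46, adjusted p = 0.00135, edgeR). Between the *pab1*-repressed pair and the *igo1*Δ-labelled libraries it was not called (log2 -0.73, adjusted p = 0.199, limma), so the name *pab1*-repressed follows the label. *nmt1*, the natural target of the thiamine-repressible promoter, had 165916 and 197645 WT reads, 146558 and 202812 in the *igo1*Δ-labelled libraries, and 66 and 49 in the *pab1*-repressed pair. The *nmt1* reads of WT and of the *igo1*Δ-labelled libraries go against a label of thiamine for all 3 groups, so *pab1* repression and thiamine itself cannot be told apart in the comparisons with the *pab1*-repressed pair. The summed level of 7 M-cell markers was between 19745 and 25573 in WT and *pab1*-repressed libraries and 1951 and 1681 in the *igo1*Δ-labelled libraries, with *mat1-Mc* at most at 12.4 and *mat1-Mm* at most at 8.59. The 4 P-cell markers summed to between 1767 and 2705 in all libraries. Their part in the results was not tested. Reads on the 49 ribosomal RNA rows, which the depletion should remove, were 176 and 1855 in WT, 467 and 3178 in the *igo1*Δ-labelled libraries, and 5711 and 29548 in the *pab1*-repressed pair.

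Reads were found on 41 of the 60 rows, and the 19 rows at 0 in all 6 libraries were found in particular places. In the reference, 18 rows lie on the same strand inside another gene that the tables count, 10 of them in introns and 8 in exons of a non-coding RNA, and all 18 were at 0. Of the 42 rows outside such genes only 1 was at 0, the snoRNA *sno16*. The 10 intronic snoRNAs include snoU24b in *cpc2*, the gene of a ribosome-bound scaffold protein, snoR39b in *rpl701*, a ribosomal protein gene, and snoU18 in *ero11*, a gene of oxidative protein folding. The 8 others lie in the host transcripts *snoZ*, SPNCRNA.1483, SPNCRNA.1650 and SPNCRNA.617, and *snoZ* alone carries snoZ3, snoZ4, snoZ5, snoZ7 and snoZ8. Another 7 rows lie in a reference gene that the tables do not hold, and all 7 had reads, as did all 8 rows that lie only opposite a counted gene. How the counting treated overlapping genes and strand is not stated. A 0 on these 18 rows is therefore not a measured absence. Whether reads of a row opposite another gene include reads of its partner was not tested. These hosts and overlaps were chosen for description after the values were seen.

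Whether the reads counted for the host transcripts of these 18 snoRNAs include reads of the snoRNAs is not known. *snoZ* had 46 and 48 WT reads, 45 and 27 in the *igo1*Δ-labelled libraries, and 122 and 78 in the *pab1*-repressed pair. SPNCRNA.1483, which holds snoZ30, had 258 and 345, 259 and 168, and 629 and 490 reads in the same order. Both host RNAs were highest in the *pab1*-repressed pair, and for neither did the difference from the *igo1*Δ-labelled libraries pass the test (limma, adjusted p = 0.164 and 0.0842). Of the 13 host genes tested in *igo1*Δ-labelled libraries against WT, 6 were called higher by edgeR (*cpc2*, *rpl701*, *ade4*, *gua1*, *spt20* and *rlp7*) and 2 lower (*pfd1* and *ero11*), beside 29.6% of all genes called higher and 30.1% lower.

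In WT the RNAs with reads spanned several orders of magnitude. The highest by level per kb of annotated length were *snu3* (73072 normalized reads per kb, mean of the pair), snR30 (53852), *snu32* (39454), snR95 (28762) and sno12 (14333). U3 and snR30 act in pre-ribosomal RNA cleavage, and snR95 and sno12 are H/ACA snoRNAs. U2 was the most abundant spliceosomal RNA with 5876 per kb, followed by U1 with 1239, U6 with 297, U5 with 152 and U4 with 93.2. The WT libraries of neighbours in this order did not overlap per kb, but U6, U5 and U4 rested on 8 to 33 reads. Too few reads for any test were found for 7 RNAs, snR40, snR41, snoR54b, snr62, snR5, snR10 and snR96, with at most 21 reads in a library, and snR10 had at most 2.

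**Figure D1:**
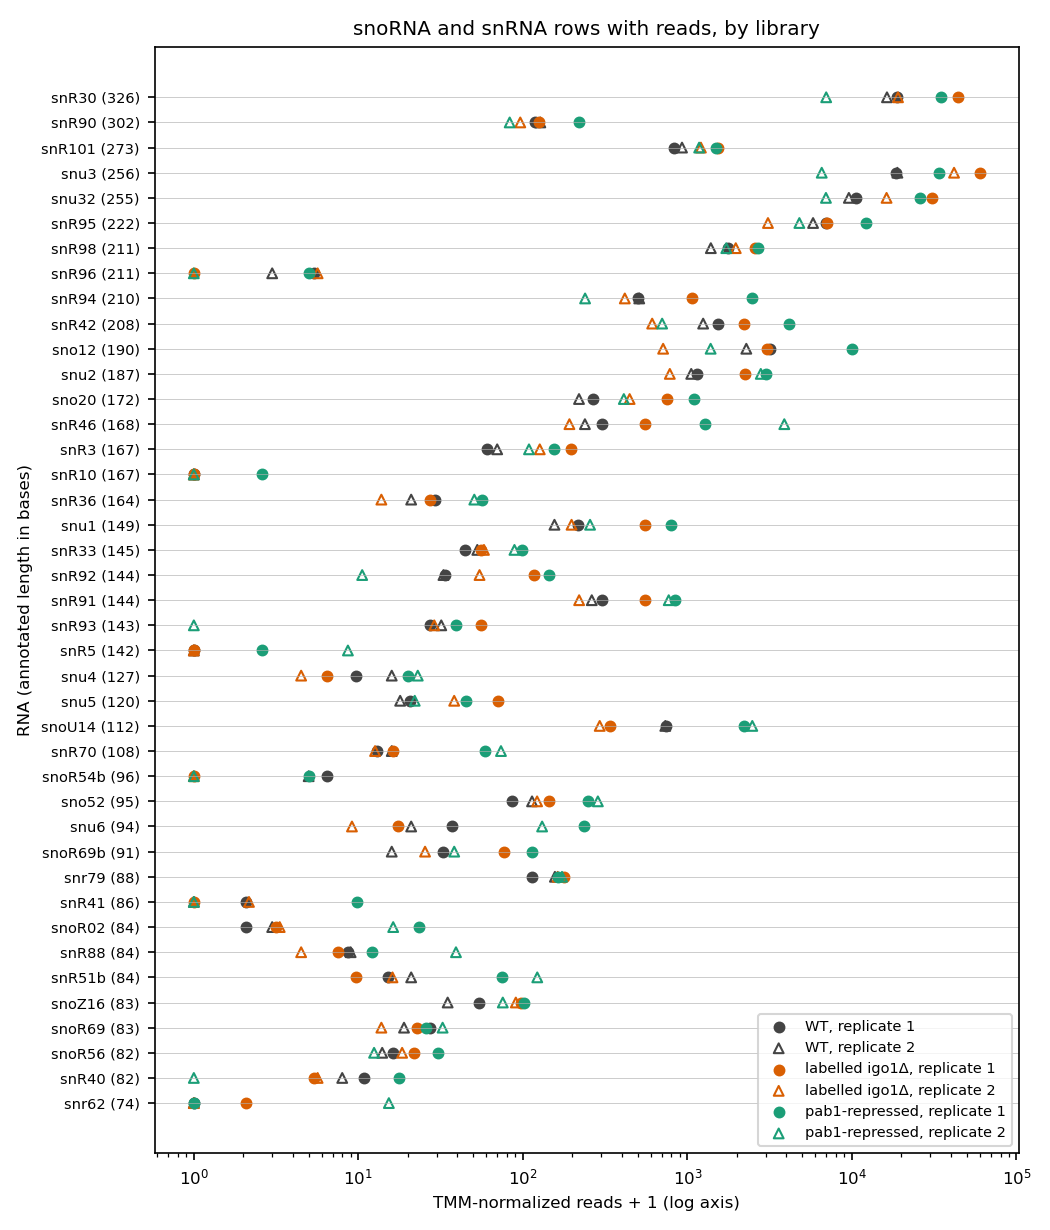
TMM-normalized reads plus 1, on a log axis, of the 41 snoRNA and snRNA rows with reads, ordered by annotated length (in bases, in brackets), with filled circles for replicate 1 and open triangles for replicate 2 of each group. *snu3*, snR30 and *snu32* lie furthest to the right, and the open green triangles of *pab1*-repressed replicate 2 are the lowest points of *snu3*, *snu32*, snR30, snR90 and snR94 and the highest of several short RNAs, among them U14, snR70 and snR51b.

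Length and level went together among these RNAs, but length went with family too. The H/ACA snoRNAs have at least 142 bases and the U3 copies at least 255. The longest other snoRNA with reads is U14, with 112. Length and family therefore cannot be told apart, here or in the later splits by length. The 10 RNAs of at least 200 bases had a median of 7062 normalized reads per kb in WT, the 15 of at least 120 but under 200 bases had 329.0, and the 16 under 120 bases had 188. The long RNAs were not all abundant, since snR90, of 302 bases, had 404 reads per kb and snR96, of 211 bases, had 15.05. Over the 41 RNAs Spearman's rho of length and WT level per kb was 0.612, a description over RNAs that share the same libraries. The labels name TRIzol and the methods of the study a column kit for RNA extraction, and how either treated RNAs of these lengths was not tested.

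The libraries of a pair differed in these RNAs more than in other genes. In WT the median absolute difference between the 2 libraries was 0.264 on the log2 scale over the 33 RNAs with a mean of at least 10 normalized reads, against 0.0793 over the 6019 genes at the same minimum. It was 0.76 against 0.144 in the *igo1*Δ-labelled libraries and 1.03 against 0.472 in the *pab1*-repressed pair. Replicate 2 lay more than 1 log2 unit below replicate 1 for 1 of the 33 RNAs in WT, for 11 in the *igo1*Δ-labelled libraries and for 15 in the *pab1*-repressed pair. Over all genes these shares were 0.399%, 1.33% and 9.95%. All 9 RNAs of at least 200 bases were lower in replicate 2 of the *pab1*-repressed pair, with a median of -1.90, from -0.35 for snR101 to -3.38 for snR94. They were also all lower in replicate 2 of the *igo1*Δ-labelled libraries, with a median of -0.92, as were 12 of the 13 RNAs of at least 120 but under 200 bases and 10 of the 11 under 120 bases, with medians of -0.98 and -0.25. In the *pab1*-repressed pair the 11 RNAs under 120 bases had a median of 0.17 and ran from -1.58 for snoR69b to 1.69 for snR88, with 4 below 0. Spearman's rho of length and difference was -0.492 there, -0.372 in the *igo1*Δ-labelled libraries and -0.00418 in WT, each over 33 RNAs that share their libraries.

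**Figure D2:**
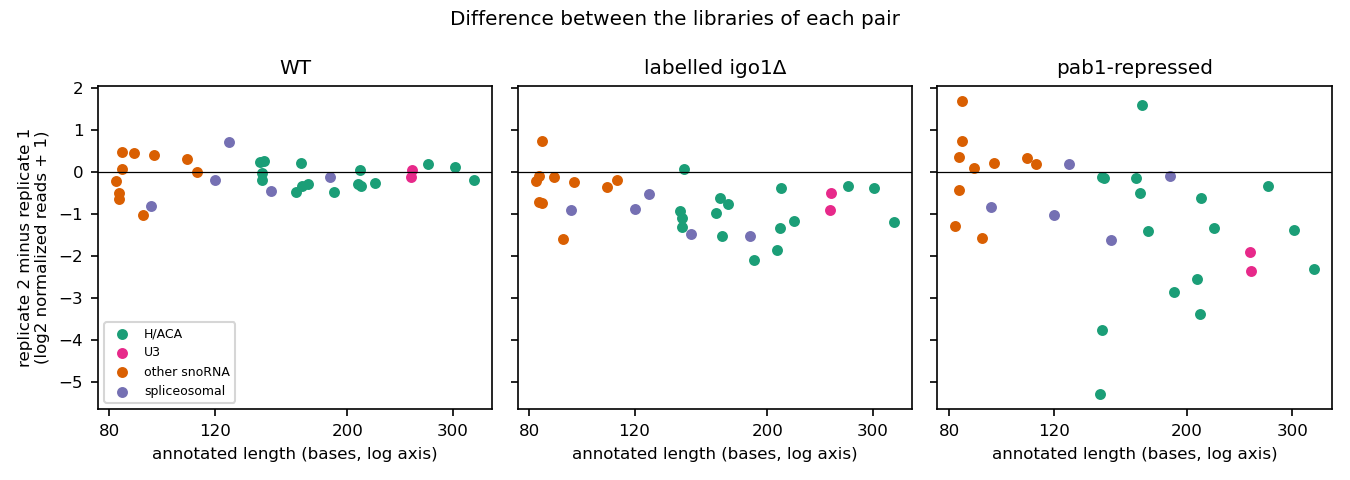
Difference between replicate 2 and replicate 1 of each group, in log2 normalized reads plus 1, against annotated length (bases, log axis) for the 33 RNAs with a mean of at least 10 normalized reads, coloured by family. Most WT points lie near 0, whereas in the *igo1*Δ-labelled and in the *pab1*-repressed pair every RNA of at least 200 bases lies below 0.

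As a result the share of reads on these RNAs was uneven. It was 0.412% and 0.377% of the reads on genes in WT, 0.822% and 0.409% in the *igo1*Δ-labelled libraries, and 0.923% and 0.284% in the *pab1*-repressed pair. The latter pair thus held both the highest and the lowest share. U3, snR30 and snR95 took 82.7% and 83.8% of the snoRNA and snRNA reads in WT, 89.5% and 91.0% in the *igo1*Δ-labelled libraries, and 76.9% and 59.5% in the *pab1*-repressed pair.

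The first comparison asked how these RNAs differ in cells labelled *igo1*Δ, where the Endosulfine inhibitor of PP2A/B55 should be missing. U3 rose and U14, a box C/D snoRNA of 18S processing, fell. *snu3* had 18527 and 18886 normalized reads in WT and 59719 and 41740 in the *igo1*Δ-labelled libraries. The groups did not overlap, and the level was 2.71-fold higher (log2 fold change 1.43, standard error 0.18, edgeR quasi-likelihood adjusted p = 0.00019). The second copy, *snu32*, had 10547 and 9575 WT reads and 30667 and 16231 in the *igo1*Δ-labelled libraries, 2.33-fold higher (log2 1.21, standard error 0.25, adjusted p = 0.00343, edgeR). U14 moved the other way, with 741 and 733 normalized reads in WT and 337 and 292 in the *igo1*Δ-labelled libraries. Both libraries of that label lay below both WT libraries, 2.34-fold lower on average (log2 -1.24, standard error 0.11, adjusted p = 2.93e-05, edgeR). One read of U14 thus stood against 25.0 and 25.8 reads of *snu3* in WT and 177 and 143 in the *igo1*Δ-labelled libraries.

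Of the 60 RNAs 31 passed the minimum mean of 10 reads in this comparison, and 9 of them were called higher and 1 lower at an adjusted p under 0.05. Over all 5931 genes tested 29.6% were called higher and 30.1% lower by edgeR. The share of these RNAs called higher is near that background. Groups without overlap were found for 14 of the 31 on the higher side, against 39.9% of all genes, and for 2 on the lower side (U14 and U6), against 42.4%. The median log2 fold change of the 31 was 0.46, beside -0.03 over all genes. With upper-quartile scaling the median of all genes moved to -0.14, the background changed to 24.7% higher and 38.4% lower, and the RNAs called were 9 higher and 2 lower. By family, 5 of 16 H/ACA snoRNAs, 2 of 2 U3 copies, 1 of 4 spliceosomal RNAs and 1 of 9 other snoRNAs were called higher.

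The largest rise among the called RNAs was that of U5, an RNA of the tri-snRNP that holds the exons in the spliceosome. U5 had 19.6 and 16.9 normalized reads in WT and 69.6 and 37.2 in the *igo1*Δ-labelled libraries (log2 1.54, standard error 0.39, adjusted p = 0.00888, edgeR). The H/ACA snoRNA snR92 had 32.7 and 31.9 against 116 and 53.5 (log2 1.39, standard error 0.39, adjusted p = 0.0135), and its row lies opposite a counted gene. The groups did not overlap for either RNA, and the *igo1*Δ-labelled libraries were the more uneven. snR3 and sno20, whose counterparts snR3 and snR35 guide pseudouridylation in *Saccharomyces cerevisiae*, followed with log2 fold changes of 1.30 each (standard errors 0.25 and 0.24, adjusted p = 0.00234 and 0.00174). snR3 had 59.9 and 68.8 WT reads and 194 and 126 in the *igo1*Δ-labelled libraries, and sno20, which also lies opposite a counted gene, had 267 and 218 against 753 and 444. The other RNAs called higher, named after their values were seen, were snoZ16 (log2 1.09), snR101 (0.64) and snR98 (0.53).

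The other spliceosomal RNAs did not pass the test. U1, which recognises the 5′ splice site, had 215 and 155 normalized reads in WT and 548 and 197 in the *igo1*Δ-labelled libraries (log2 1.01, standard error 0.41, adjusted p = 0.0602). U2, which pairs with the branch point, had 1144 and 1054 against 2242 and 781 (log2 0.46, standard error 0.38, adjusted p = 0.321). In both RNAs replicate 1 of the label lay far above WT, and replicate 2 lay between the WT libraries for U1 and below them for U2, so that the groups overlapped. U6 had 35.9 and 19.9 against 16.3 and 8.14 (log2 -1.17, standard error 0.48, adjusted p = 0.0649), with the groups apart but on 33 and 20 against 15 and 7 reads. U4, which is carried into the spliceosome paired with U6, had 8 and 15 against 5 and 3 reads, too few for the test.

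The median of the RNAs tested moved with single libraries. Without replicate 1 of the label the median log2 fold change was 0.09, and without its replicate 2 it was 0.81. Leaving out WT replicate 1 gave 0.53, and leaving out WT replicate 2 gave 0.39. Over all genes the medians of these fits lay between -0.03 and -0.02. The called fold changes of *snu3*, *snu32*, U14, sno20, snR3, snR98, snR101 and U5 stayed called without any one library, with *snu3* between 1.16 and 1.68, *snu32* between 0.69 and 1.61 and U14 between -1.33 and -1.12. snoZ16 missed the threshold without WT replicate 2 (adjusted p = 0.0625, edgeR) and snR92 without replicate 1 of the label (adjusted p = 0.0572).

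**Figure D3:**
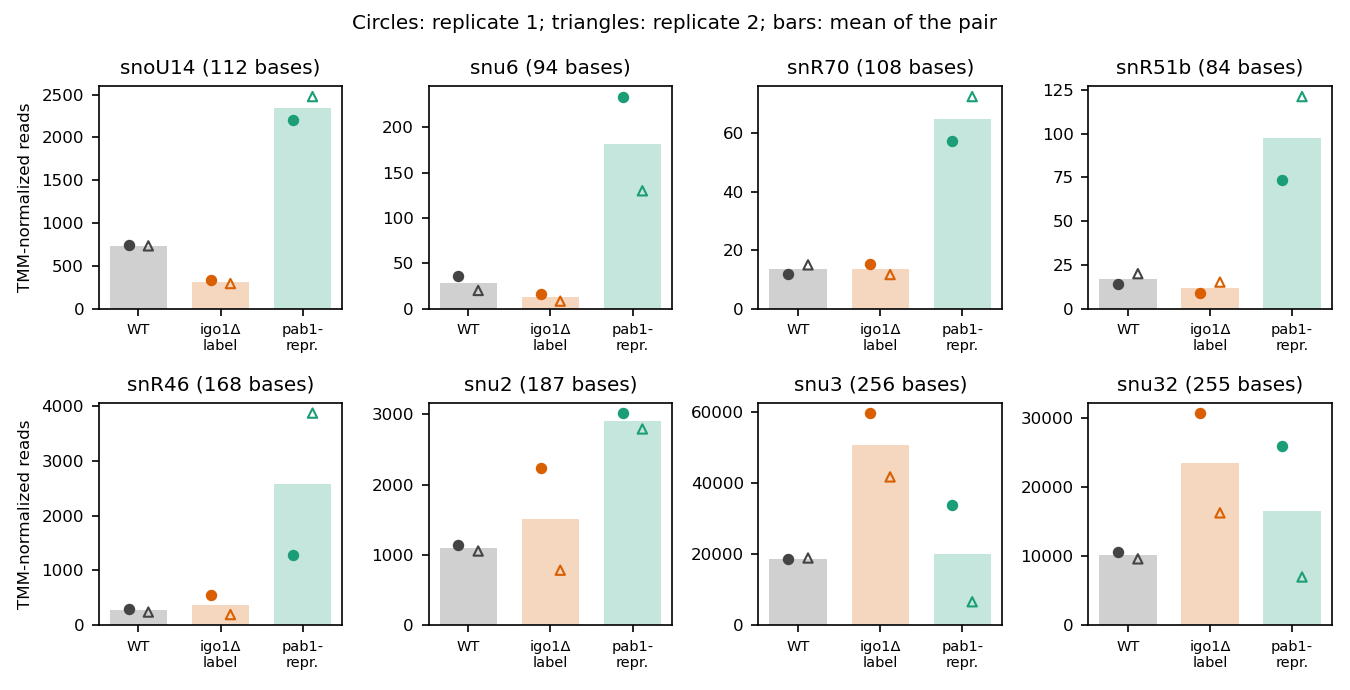
TMM-normalized reads of 8 RNAs in WT, in the *igo1*Δ-labelled libraries and in the *pab1*-repressed libraries, with a circle for replicate 1, a triangle for replicate 2 and a bar, starting at 0, for the mean of the pair. U14, U6, snR70, snR51b and snR46 are highest in both *pab1*-repressed libraries, while the *pab1*-repressed replicates of *snu3* and *snu32* lie far apart.

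The second comparison asked what differs in cells labelled with *pab1* repression as well as *igo1* deletion. It shares the *igo1*Δ-labelled libraries with the first, so the directions of both are tied through those libraries. U14, U6 and snR51b rose. U14 had 337 and 292 normalized reads in the *igo1*Δ-labelled libraries and 2202 and 2478 in the *pab1*-repressed pair, 7.44-fold higher (log2 2.87, standard error 0.19, adjusted p = 0.00771 from limma). U6, the RNA at the catalytic centre of the spliceosome, had 16.3 and 8.14 against 234 and 130, 14.9-fold higher (log2 3.78, standard error 0.56, adjusted p = 0.0292). For both RNAs every *pab1*-repressed library lay above all 4 other libraries. snR51b, a box C/D snoRNA whose *S. cerevisiae* namesake snR51 guides ribosomal RNA methylation, had 8.71 and 15.1 against 73.4 and 121, 8.17-fold higher (log2 2.91, standard error 0.54, adjusted p = 0.0448).

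Of the 60 RNAs 34 passed the minimum here, 3 were called higher and 0 lower, and the limma background over 6046 genes was 2.91% higher and 6.12% lower. snoR02, snR88 and U4 passed only through the *pab1*-repressed pair, since their mean in the other group was under 10 reads. Without them, a restriction set after seeing the data, groups without overlap were found for 11 of 31 on the higher side, against 33.1% of the 5818 genes whose mean reached 10 reads in both groups, and on the lower side for *snu3* alone, against 34.0%. The median log2 fold change of the 31 was 0.43, beside -0.02 over those genes. Upper-quartile scaling moved the median of all genes to 0.19 and their calls from 176 higher and 370 lower to 247 and 287, and left 3 of these RNAs called higher. DESeq2 called 6 of these RNAs higher and 0 lower, with 9.28% of all genes higher and 12.0% lower. With edgeR 3 were called higher and 0 lower, against 2.97% and 5.18% of all genes. At an unadjusted p under 0.05 limma gave 7 of the 31 RNAs higher and 0 lower, against 12.9% of the 5818 genes higher and 18.3% lower.

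Several RNAs near the called ones had high values without passing the test, and these were picked after their values were seen. snR70, a box C/D snoRNA encoded next to snR51b on the same strand of chromosome I, had 15.2 and 11.6 normalized reads in the *igo1*Δ-labelled libraries and 57.5 and 72.6 in the *pab1*-repressed pair (log2 2.17, standard error 0.47, adjusted p = 0.0591, limma). The gap between these neighbours is 145 bases in the reference, and snR41 lies 141 bases before snR70. snR41 had at most 1 read in WT and in the *igo1*Δ-labelled libraries, and 11 and 0 in the *pab1*-repressed pair, so the members of this cluster had unequal reads. snR46, an H/ACA snoRNA whose *S. cerevisiae* namesake guides pseudouridylation of the large ribosomal RNA, had 550 and 191 against 1282 and 3879 (log2 2.75, standard error 0.73, adjusted p = 0.0837).

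U3 had the opposite sign without passing the test. *snu3* had 59719 and 41740 normalized reads against 33683 and 6550 in the *pab1*-repressed pair (log2 -1.78, standard error 0.83, adjusted p = 0.21), and *snu32* had 30667 and 16231 against 25965 and 6948 (log2 -0.76, standard error 0.72, adjusted p = 0.493). The *pab1*-repressed libraries differed from each other more widely than the groups, by -2.36 for *snu3* and -1.90 for *snu32* on the log2 scale, replicate 2 minus replicate 1. The proportion of the copies varied by library: *snu32* had 56.9 and 50.7 reads per 100 reads of *snu3* in WT, 51.4 and 38.9 in the *igo1*Δ-labelled libraries, and 77.1 and 106 in the *pab1*-repressed pair. Of the other spliceosomal RNAs U4 (log2 1.98, adjusted p = 0.14) and U2 (log2 1.11, adjusted p = 0.211) were higher without overlap and U1 (0.43) and U5 (-0.75) overlapped, and none of these passed.

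The median of these RNAs in this comparison moved with single libraries. Without *pab1*-repressed replicate 1 the median log2 fold change was -0.25, and without replicate 2 it was 0.91. Over all genes it was -0.01 in both of these fits. Leaving out replicate 1 of the *igo1*Δ label gave a median of 1.06, and leaving out its replicate 2 gave -0.01. U14 stayed called throughout, at 2.77 to 2.96, but snR51b missed the threshold without either library labelled *igo1*Δ (adjusted p = 0.252 and 0.158, limma) and U6 without replicate 2 of that label (adjusted p = 0.0733). Of the 31 RNAs with both group means at the minimum, the 10 under 120 bases, a limit also set after seeing the data, had a median of 0.83 and the 21 of at least 120 bases one of 0.18.

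The third comparison set the *pab1*-repressed pair against WT, and shares its libraries with the other comparisons. U14, U6, snR70, snR51b and snR46 again had their highest values in the *pab1*-repressed pair, but 0 of 34 tested RNAs passed limma's adjusted threshold in either direction. The background was as empty, with 0 of 6035 genes higher (0.0%) and 2 lower (0.0331%). Of the 34, snoR02 and snR88 passed the minimum only through the *pab1*-repressed pair. Without them limma gave 12 of 32 RNAs higher and 0 lower at an unadjusted p under 0.05, against 8.35% higher and 9.72% lower of the 5856 genes whose mean reached 10 reads in both groups. edgeR on recovered reads called 0 in either direction, against 0.0% of all genes higher and 0.0331% lower. DESeq2 called 9 higher and 0 lower, against 3.21% and 2.53% of all genes. The 9, named after their values were seen, were U14, U6, U2, snR70, snR51b, snR46, snR91, sno52 and sno20. Groups without overlap were found for 19 of the 32 on the higher side, against 26.2% of the 5856 genes, and for 0 on the lower side, against 29.3%. The median log2 fold change of the 32 was 0.76, beside -0.02 over those genes.

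U14 had 741 and 733 normalized WT reads and 2202 and 2478 in the *pab1*-repressed pair, 3.18-fold higher (log2 1.67, standard error 0.14, adjusted p = 0.11, limma). U6 had 35.9 and 19.9 against 234 and 130, 6.51-fold higher (log2 2.67, standard error 0.50, adjusted p = 0.18). U2 had 1144 and 1054 against 3017 and 2791, 2.64-fold higher (log2 1.41, standard error 0.14, adjusted p = 0.123). In these 3 RNAs both *pab1*-repressed libraries lay above WT. They lay close together for U14 and U2, whereas for U6 replicate 2 minus replicate 1 was -0.84 on the log2 scale. snR46 showed the highest fitted change, with 301 and 237 against 1282 and 3879 (log2 3.06, standard error 0.59, adjusted p = 0.183), and its *pab1*-repressed replicates stood far apart. snoR02, opposite a counted gene, had 1 and 2 WT reads and 28 and 16 in the *pab1*-repressed pair. U1 (log2 1.31, adjusted p = 0.347), U4 (0.80, adjusted p = 0.46) and U5 (0.72, adjusted p = 0.516) had positive values and did not pass either, while *snu3* (-0.33) and *snu32* (0.43) lay near 0 with standard errors of 0.85 and 0.69.

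Leaving replicate 1 out of the *pab1*-repressed pair gave a median log2 fold change of 0.52 in this comparison. The median was 1.26 when its replicate 2 was left out. Leaving out WT replicate 1 gave 0.83, and leaving out WT replicate 2 gave 0.78. With all libraries kept, the median for the 10 of the 32 RNAs under 120 bases was 1.49, and 0.62 for the 22 longer ones. The *pab1*-repressed replicate 2 is also the library with the most ribosomal RNA reads, whose part in these differences was not tested.

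**Figure D4:**
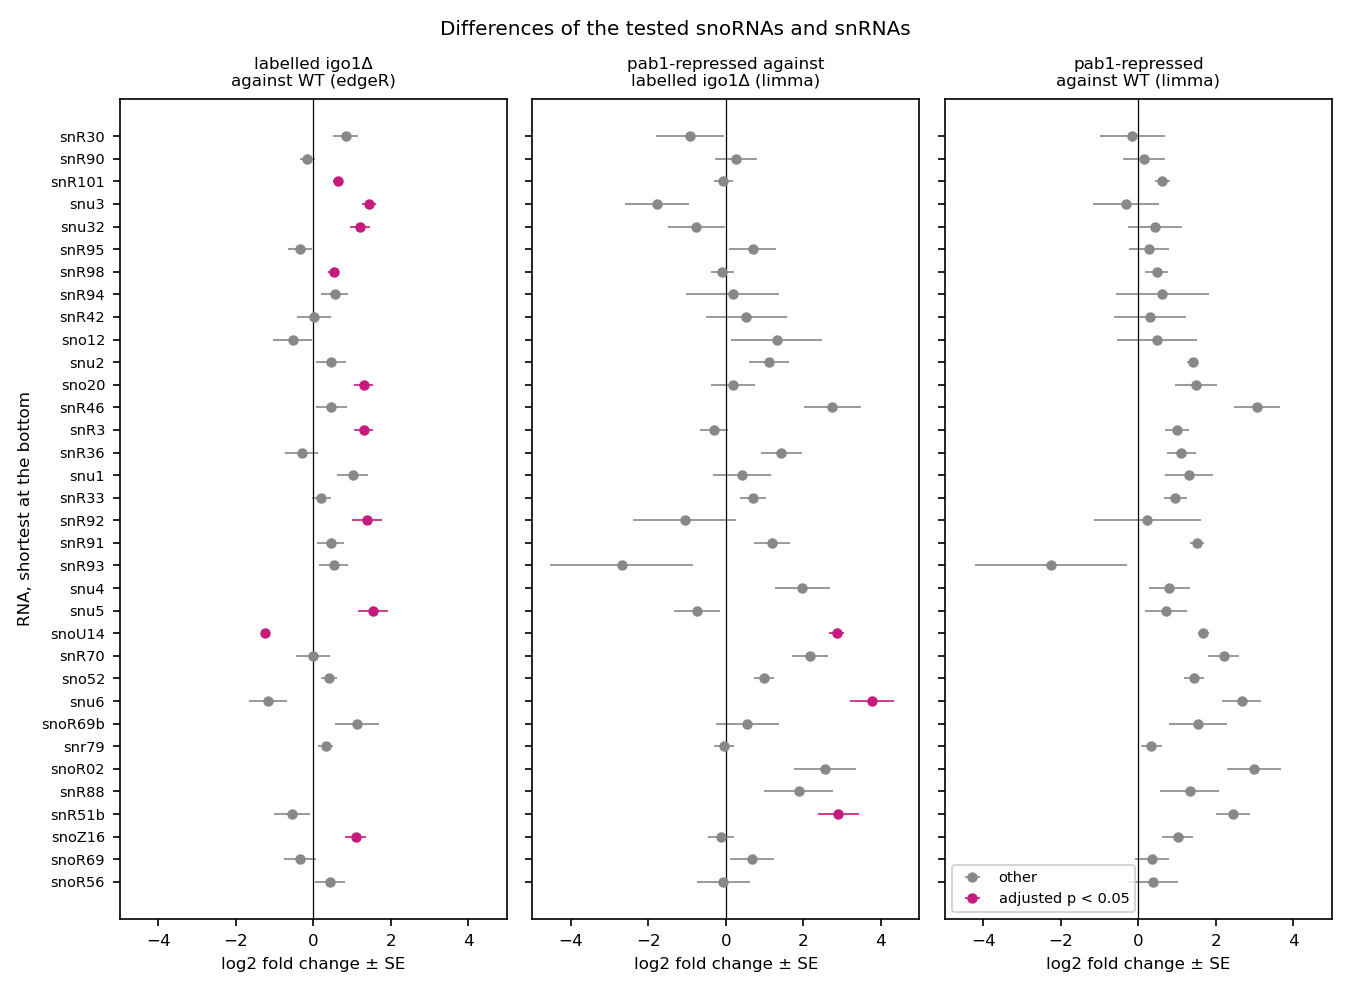
Log2 fold changes with standard errors of the tested RNAs in the 3 comparisons, with the shortest RNA at the bottom and RNAs at an adjusted p under 0.05 in pink (edgeR on the left, limma in the other panels). On the left the standard errors are derived from the F statistic of the test. U14 is called lower on the left and higher in the middle, and in the right panel none is pink.

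Other stable RNAs without a poly(A) tail, picked after seeing the data, were uneven too. *srp7*, the RNA of the signal recognition particle, had 48021 and 41387 normalized reads in WT, 230221 and 123664 in the *igo1*Δ-labelled libraries, and 84476 and 41709 in the *pab1*-repressed pair. It was called higher in the *igo1*Δ-labelled libraries (log2 1.98, adjusted p = 0.000483, edgeR), as was *rrk1*, the RNA of ribonuclease P (log2 1.41, adjusted p = 1.85e-05). *mrp1*, of ribonuclease MRP, and *ter1*, of telomerase, were not called there. In the second comparison *rrk1* was called lower (log2 -1.68, adjusted p = 0.0489, limma) and the other 3 were not called. All 4 were lower in replicate 2 than in replicate 1 of the *pab1*-repressed pair, like the long snoRNAs.

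The protein genes of these particles are listed by role. All 4 core proteins of box C/D snoRNPs were called higher in the *igo1*Δ-labelled libraries by edgeR, with log2 fold changes of 1.08 for *fib1* (fibrillarin, the methyltransferase), 0.85 for *snu13*, 0.39 for *nop56* and 0.34 for *nop58*. Of the 4 H/ACA core proteins *gar1* (0.68) and *cbf5* (0.62, the pseudouridine synthase) were higher and *nop10* lower (-0.87). In the *pab1*-repressed pair against the *igo1*Δ-labelled libraries, *snu13* was lower (-1.47, adjusted p = 0.0467, limma) and *nop10* higher (1.38, adjusted p = 0.0411), and the other 6 core proteins were not called. The directions of these calls within the H/ACA core thus differed between its members.

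Of 15 matched genes of snoRNA and snRNA assembly, capping and processing 5 were higher and 4 lower in the first comparison, with the largest changes in *smn1* (-0.73), *shq1* (-0.46), *dhp1* (0.45) and *rvb2* (-0.43), and none was called in the second. Of 12 proteins of the U3 particle and early processome, the complex that U3 enters, 4 were higher and 2 lower in the first, led by *utp6* (0.73), *utp18* (-0.64), *sof1* (0.51) and *utp7* (0.44), and *utp18* alone was called in the second (0.99, adjusted p = 0.0442, limma). In the Sm ring, which binds U1, U2, U4 and U5, 1 of 7 was higher (*smb1*, 0.29) and 0 lower. In the Lsm ring, whose nuclear form binds U6, 1 of 7 was higher (*lsm7*, 0.69) and 3 lower (*lsm5* -0.66, *lsm2* -0.50, *lsm6* -0.42). Of 17 matched proteins of the spliceosomal particles 2 were higher and 6 lower. Among those called *prp3* (-0.44), *sap62* (-0.41), *prp4* (-0.40) and *usp102* (-0.39) lay furthest from 0. None of the Sm, Lsm or spliceosomal particle genes was called by limma in the second comparison. Over all lists, 66 genes, limma called 2 higher and 1 lower there, against 2.91% and 6.12% of all genes. At an unadjusted p under 0.05 limma gave 11 and 6, against 12.9% and 18.3% of genes with both group means at least 10 reads. DESeq2 called 9 and 3, against 9.28% and 12.0% of all genes, and edgeR 3 and 0, against 2.97% and 5.18%. In the third comparison limma, DESeq2 and edgeR each called 0 of the 66. Of all genes limma and edgeR each called 0.0% higher and 0.0331% lower there, and DESeq2 3.21% and 2.53%. At an unadjusted p under 0.05 limma gave 10 higher and 1 lower, against 8.35% and 9.72% of genes with both group means at least 10 reads. The counts of the first comparison lie beside the 29.6% and 30.1% of all genes called in the first comparison. The median log2 fold changes there were 0.62 for the C/D core, 0.18 for the H/ACA core, -0.02 for assembly, -0.05 for the U3 particle, -0.09 for the Sm ring, -0.07 for the Lsm ring and -0.17 for the spliceosomal proteins.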

How the data were processed

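Strand-specific total RNA libraries were sequenced and, per the labels and the methods of the study, checked with FastQC 0.11.8, trimmed with Trimmomatic 0.38, aligned with HISAT2 2.1.0 to ASM294v2 and counted with featureCounts (Subread 1.6.3). Strand use and the treatment of overlapping genes and of reads with several matches are not given in the sources used here. The values deposited are a normalized signal, reads per gene divided by a DESeq2 size factor, in 2 tables scaled separately. Divided by the smallest value of its column, 100% of values were whole to within 0.1, and the quotients were taken as reads.

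Because WT and *igo1*Δ-labelled libraries never share a table, their recovered reads were tested with the quasi-likelihood method of edgeR 4.0.16 after TMM scaling. The standard errors given for edgeR were not estimated by the fit. They are the absolute log2 fold change divided by the square root of the F statistic of the test. The other comparisons took log2(deposited value + 1) into limma 3.58.1, with its variance trend, so they understate changes of low genes. Genes with a mean of at least 10 were tested, p-values were adjusted by Benjamini-Hochberg over all genes tested, and an adjusted p under 0.05 was called. No overlap means that both libraries of one group lie beyond both of the other on the TMM scale. Values given as fold higher or lower are ratios of the group means on that scale, so they can differ from the fitted log2 fold changes beside them. An exact permutation test of 2 against 2 libraries cannot go below a two-sided p of 0.333 and was not used. The fits were tested on simulated reads.

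Names, lengths, overlaps and sequences come from ASM294v3 (RefSeq), to which 97.9% of identifiers were matched. Since the builds differ no coordinates are given. The members and lists were chosen with earlier results of these data known. Named were all SPSNRNA rows, both U3 copies, the 5 highest RNAs per kb in WT, up to 5 rises and 5 falls among called RNAs without overlap, and up to 4 called genes of each protein list with the largest change. The symbols *tah1*, *pih1*, *prp6* and *mat1-Pc* were not matched. Alternatives were DESeq2 1.42.0 and edgeR on recovered reads, upper-quartile scaling, pseudocounts of 0.1 and 10, no minimum or a mean of at least 50, the replicate number as a block, and each library left out. R 4.3.3 and Python 3.11.15 were used.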

Additional observations from a re-analysis of the deposited data

How the results depend on the processing

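Of 63 other treatments of the counts of called snoRNAs and snRNAs and of their median change, other than leaving out a library, 57 stayed within 1.5 times the count or within the spread between replicates. That spread was 0.50, 0.83 and 0.46 log2 units in the 3 comparisons, beside medians of 0.46, 0.54 and 0.88. In the first 2 a median of 0 would also have stayed within it, so this rule says little about those medians. The exceptions were the number called lower in the *igo1*Δ-labelled libraries against WT, which went from 1 to 2 with upper-quartile scaling and 2 without a minimum mean, and the number called higher in the *pab1*-repressed pair, which went from 3 to 6 against the *igo1*Δ-labelled libraries and from 0 to 9 against WT with DESeq2. With the replicate number as a replicate block the first comparison gave 12 higher and 4 lower (29.7% and 30.7% of all genes). The second gave 5 higher and 0 lower (2.81% and 6.19%), and the third stayed at 0 and 0 (0.0994% and 0.249%). The numbers are not known to pair the libraries: over 6019 genes the deviations of same-numbered libraries correlated at 0.132 between WT and the *igo1*Δ label, 0.121 between WT and the *pab1*-repressed pair and 0.0162 between the latter and the *igo1*Δ label. Over the 33 snoRNAs and snRNAs the same correlations were 0.541, 0.142 and 0.411, a description over RNAs that share their libraries. With each library left out, the number called in the first comparison ran from 8 to 18 higher and from 1 to 8 lower with medians from 0.09 to 0.81, in the second from 1 to 19 and from 0 to 9 with medians from -0.25 to 1.06, and in the third from 0 to 27 and from 0 to 10 with medians from 0.52 to 1.26. In those fits a lone library is assumed to vary like the other group. Among RNAs with both group means at the minimum, those under 120 bases had the higher medians, 0.83 and 1.49, in the comparisons of the *pab1*-repressed pair, a restriction added after seeing the data. In the first comparison the order was the other way, with a median of 0.15 for the 10 under 120 bases and 0.53 for the 21 longer ones. The causes were not tested. Over 125 refits of the 13 calls of single RNAs 6 lost the call and 0 reversed; beside those given above, snR51b missed the threshold at a minimum mean of 50 (adjusted p = 0.062, limma). Depth limits the 7 RNAs with at most 21 reads in a library, which no test covered, and then U4, snoR02, snoR69, snoR56 and snR88, with at most 40. No statement can be made on the 18 snoRNAs inside counted genes, since how the counting treated overlapping genes is not known.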
